A study of Mus musculus with 6 samples.

Results

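The 45 genes described here drive or mark the cell cycle. They were taken by gene symbol from the 55254 symbols of the deposited count table. 11 of them serve DNA replication, 29 act in mitosis, and 5 (Hmgb2, Stmn1, Tuba1b, Tubb5 and Lmnb1) have roles that are not limited to either phase. They were counted in bone marrow-derived macrophages (BMDMs) of C57BL/6J mice, in 3 control cultures and 3 M-Δx3,4 cultures. Both groups carried floxed hnRNPD alleles (hnRNPDfl/fl), and the M-Δx3,4 cultures also carried LysCre (LysCre+hnRNPDfl/fl), which removes exons 3 and 4 of hnRNPD in myeloid cells. The hnRNPD gene encodes AUF1, a family of RNA-binding proteins that act on AU-rich RNAs. The control cultures lacked Cre, so effects of the deletion and of Cre itself cannot be told apart. All 6 cultures had been differentiated for 10 days in medium from L929 cells and then treated with 100 ng/ml LPS for 4 hrs, so the comparison is between activated macrophages. The methods give an age of 6 to 8 weeks for mice whose marrow was cultured, though another section gives an older range for the mice of all experiments. The sources used here do not give their sex or say whether each culture came from its own mouse, so the p-values below measure the spread between cultures.

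Macrophage precursors from bone marrow divide under the growth factor M-CSF, which L929 medium supplies, and leave the cell cycle as they mature. LPS is known to halt the division of macrophages. In dividing cells, transcription of replication genes rises before and during S phase under E2F transcription factors. Genes for mitosis follow in G2 phase, when protein complexes that contain the MuvB core and B-MYB or FOXM1 act on a short promoter element, the cell cycle genes homology region (CHR), often next to a CCAAT box. The 2 classes can therefore be read separately.

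Reads were counted at the 3′ ends of transcripts. The summed counts of a library lay between 5852374 and 9008878, control replicate 1 being the smallest and M-Δx3,4 replicate 3 the largest. Along the first principal component, which carried 62.1% of the variance, control replicate 1 (-30.4) and control replicate 3 (54.8) were at opposite ends and the other 4 libraries between -21.3 and 9.3. The counts of genes called are therefore also given without either of these controls. The 3′ end of Hnrnpd lies outside the deleted exons, so its reads do not show the deletion itself. The paper reports that removing these exons lowered hnRNPD RNAs. The p37 transcript of Hnrnpd had 177.8, 104.2 and 69.6 normalized counts in control and 52.8, 12.6 and 16.1 in M-Δx3,4 libraries (log2 fold change -2.11, standard error 0.54). Lyz2, the gene that carries the Cre insertion in LysMCre mice, had 1992, 1788 and 2201 normalized counts in control and 1342, 882 and 968 in M-Δx3,4 libraries. All 11 macrophage markers looked for were present, and their sum ran from 9699 to 12125 in control and from 8891 to 10350 in M-Δx3,4 libraries, which overlap. The 6 markers of myeloid progenitors, which would be dividing, summed to between 0 and 6.1 in every library, and Elane and Ctsg had no count.

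Promoter windows are shown first because the CHR was found mostly in the mitosis class. Promoters of 250 bases before to 50 bases after the start site were taken from RefSeq on GRCm38.p6 for 37 of the 45 genes. The CHR was searched as TTTGAA or TTCGAA, the CCAAT box as CCAAT, and E2F sites as TTTCGCG, as its variant TTTGGCG, as the variant TTTCCCG or as the variant TTTGCCG, each on both strands, and matches of different motifs may share bases. Of 24 mitosis genes with a promoter, 20 (83.3%) held a CHR match, against 2 of 10 replication genes (20%) and 16.5% of the promoters of 8236 genes tested. All 20 also held a CCAAT match, a combination found in 6.7% of the genes tested. An E2F match was found in 4 of 10 replication genes (40%), in 4 of 24 mitosis genes (16.7%) and in 12.8% of the genes tested. CCAAT alone did not separate the classes, with 8 of 10 replication and 22 of 24 mitosis genes against 42.7% of the genes tested. A match is a description of the letters and no evidence of binding. Windows of Cdc20, Cdk1 and Prc1, mitosis genes that were called lower in the comparison below, and of the kinase gene Plk1, which was not called with all 6 libraries, are given first, with the CHR match in capitals.
Cdc20, chr4:118437344-118437372, minus strand: gacagttgggtTTTGAAggagccaatgaa
Cdk1, chr10:69352910-69352938, minus strand: accgcggcgagTTTGAAactgctggcact
Prc1, chr7:80294435-80294463, plus strand: ctctggctcggTTTGAAttccgcggggtc
Plk1, chr7:122159454-122159482, plus strand: ccagcgccgcgTTTGAAttcggggaggag
The windows of 3 of the 4 replication genes with an E2F match follow, all of them helicase genes, with that match in capitals. The other, Mcm7, held a CHR match as well, and the promoter of Cdk1 also held an E2F match.
Mcm5, chr8:75109350-75109378, plus strand: aagaactttcgCGCCAAAacgtccagcct
Mcm3, chr1:20820275-20820303, minus strand: aacttccgtggCGGGAAAacttgggaagt
Mcm6, chr1:128359735-128359763, minus strand: gattggacgggTTTGGCGcgaagtagctc
In each of these 4 mitosis promoters the CHR match stood within 30 bases of the start site. The E2F matches of Mcm3 and Mcm6 lay 20 bases after and 47 bases before it, and that of Mcm5 148 bases before it.

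**Figure D1:**
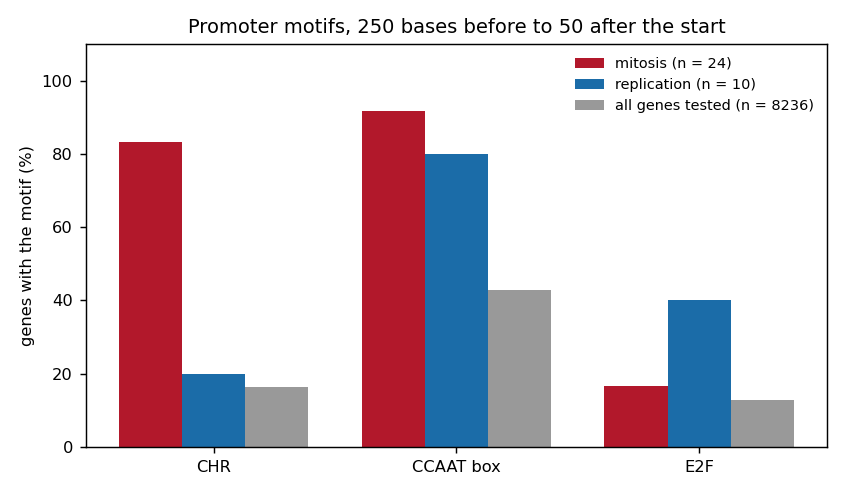
Percentage of promoters that hold a CHR, a CCAAT box or an E2F match (bars start at 0), for 24 mitosis genes, 10 replication genes and 8236 genes tested. The CHR bar of the mitosis genes stands at 83.3% against 20% for replication genes and 16.5% for the genes tested.

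The comparison of M-Δx3,4 with control asks whether loss of AUF1 in activated macrophages went with other levels of cell cycle RNAs. For each gene, the transcript of highest mean stands for it, and values are normalized counts, that is counts divided by the library's median-of-ratios size factor. Calls of a gene needed an unadjusted p under 0.05 by edgeR (quasi-likelihood test) and a log2 fold change of 1 or more in size. Over the 11875 genes tested, 1.1% were called higher and 1.97% lower in M-Δx3,4 BMDMs, and no gene had an adjusted p under 0.05 (all p-values were adjusted by Benjamini-Hochberg over the 32475 transcripts tested). Without a fold change minimum, 1.45% were higher and 2.53% lower at an unadjusted p under 0.05. M-Δx3,4 libraries all lay above the controls in 4.18% of genes and all below them in 4.26%. Of the 45 genes, 40 passed the filter on low counts. The 5 that did not (Aurkb, Bub1, Cenpe, Kif11 and Kif23) are mitosis genes with at most 4.7 normalized counts in any library. Every one of the 40 had an adjusted p of at least 0.985 in edgeR's test, so the calls below rest on unadjusted p-values. DESeq2's Wald test gave 4 transcripts with an adjusted p under 0.05, none of them from the 45 genes. The counted regions of 6 of the 45 genes overlap exons of a gene on the other strand (Mcm7 and Cops6, Ccna2 and Exosc9, Cdc20 and Elovl1, Plk1 and Ern2, Kif20a and Cdc23, Prc1 and Rccd1), and whether reads were assigned by strand is not given in the sources used here. In bulk RNA, fewer dividing cells and less of an RNA in each dividing cell cannot be told apart.

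None of the 11 replication genes was called in either direction. Without control replicate 1 none was called, where 7.05% of all genes tested were called higher and 3.98% lower. Without control replicate 3 Rrm1 was called higher, as were 0.887% of all genes tested in that fit. All 11 were tested, 3 with a positive and 8 with a negative log2 fold change, and their median was -0.21 against -0.01 over all genes tested. 1 of them, Mcm5, had an unadjusted p under 0.05 but did not reach the fold change minimum. Their summed normalized counts were 1079.8, 639.6 and 863.2 in control and 911.6, 632.1 and 792.5 in M-Δx3,4 libraries. The sums overlapped, and their means stood at a ratio of 0.905. Without control replicate 3 the median was -0.01, without control replicate 1 it was -0.20, and without control replicate 2 it was -0.60.

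Within the replicative helicase, the ring of MCM2 to MCM7 that unwinds DNA at the fork, log2 fold changes of the subunits ran from -0.82 to 0.15, and their differences were not tested. Mcm5 (ENSMUST00000164309), counted over its 3′ UTR on chr8:75127325-75128688 of mm10, had 126.7, 108.3 and 167.1 normalized counts in control and 91.0, 74.8 and 61.9 in M-Δx3,4 libraries. The groups did not overlap, at a log2 fold change of -0.82 (standard error 0.36, unadjusted p = 0.0381 and adjusted p = 0.985 in edgeR's test). Its unadjusted p was no longer under 0.05 in 4 of 17 other fits, without control replicate 3 (log2 fold change -0.62), without M-Δx3,4 replicate 2 or 3 and with a replicate block. Mcm3 had 24.4, 25.5 and 38.3 normalized counts in control and 16.6, 13.6 and 19.9 in M-Δx3,4 libraries. These did not overlap either, at a log2 fold change of -0.81 (standard error 0.45, unadjusted p = 0.0909 in edgeR's test). Mcm6 had 282.4, 141.0 and 201.9 normalized counts in control and 249.4, 173.8 and 192.6 in M-Δx3,4 libraries, its M-Δx3,4 values lying inside the range of the controls. Its log2 fold change was -0.02 (standard error 0.35). Mcm4 had 69.7, 37.8 and 41.8 in control and 70.4, 26.2 and 68.0 in M-Δx3,4 libraries, which overlap, and a log2 fold change of 0.15 (standard error 0.45). For Mcm2 and Mcm7 the log2 fold changes were -0.04 and -0.48, both with overlapping libraries.

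Pcna, the sliding clamp that holds DNA polymerases on the template, had 445.2, 239.1 and 182.1 normalized counts in control and 341.4, 248.6 and 310.3 in M-Δx3,4 libraries. All M-Δx3,4 values lay within the range of the controls, and the log2 fold change was 0.06 (standard error 0.37). The 4 genes that supply nucleotides are the ribonucleotide reductase subunits Rrm1 and Rrm2, thymidylate synthase Tyms and thymidine kinase Tk1. Tyms had 31.4, 31.7 and 34.8 normalized counts in control and 19.6, 15.5 and 25.98 in M-Δx3,4 libraries. Its groups did not overlap, at a log2 fold change of -0.67 (standard error 0.42, unadjusted p = 0.135 in edgeR's test). Rrm1 had 20.9, 16.4 and 74.3 normalized counts in control and 54.8, 33.01 and 30.6 in M-Δx3,4 libraries. Control replicate 3 was the highest of its 6 values and the other controls were the lowest, and without that library the log2 fold change moved from 0.09 to 1.09 (unadjusted p = 0.0343 in edgeR's test). Rrm2 and Tk1 had means of at most 9.9 normalized counts in either group and overlapping libraries. A two-sided exact permutation test over the 6 cultures gave p = 0.1 for Mcm3, Mcm5 and Tyms, the smallest it can give.

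**Figure D2:**
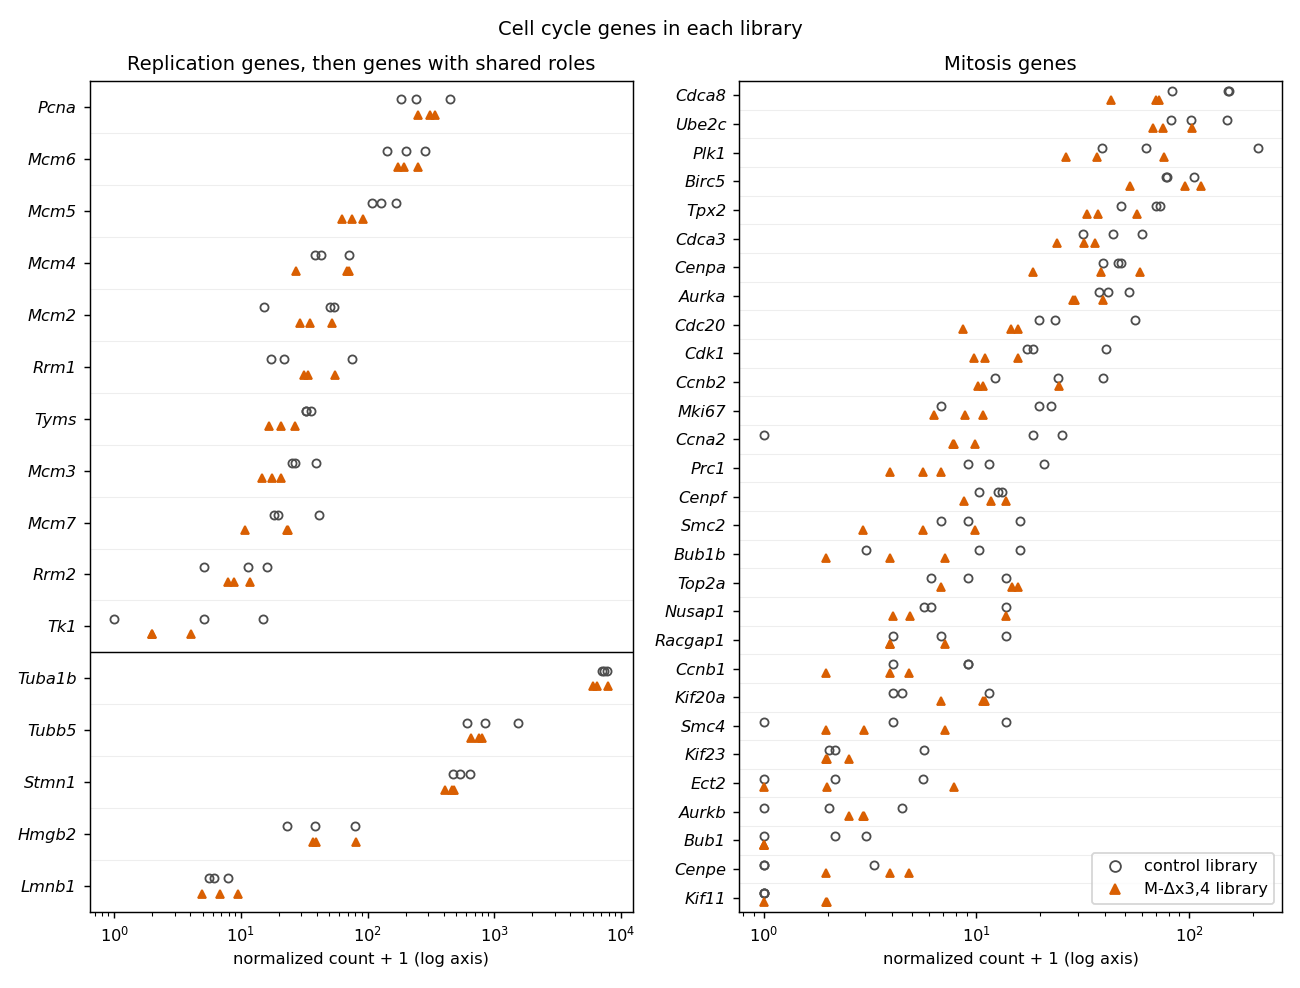
Normalized count plus 1 of each of the 45 genes in each library (log axis), open circles for the 3 control and triangles for the 3 M-Δx3,4 libraries, genes ordered by control mean within each class. All triangles lie left of all circles for Mcm3, Mcm5 and Tyms among the replication genes and for Cdca8, Cdc20, Cdk1 and Prc1 among the mitosis genes.

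Of the 29 mitosis genes, 24 were tested. Of these 24, 4 were called lower in M-Δx3,4 BMDMs (Cdca8, Cdc20, Cdk1 and Prc1) and none higher, against 1.97% and 1.1% of all genes tested. The 24 had 20 negative and 4 positive log2 fold changes, where 50.5% of all genes tested were negative. Their median was -0.76. Of the 24, 22 passed the filter in both groups, and in these the median was also -0.76 with 19 negative values. Over all 29, the mean of M-Δx3,4 was under that of control in 22 genes and over it in 7. The count of genes called lower was 3 without control replicate 1 (Cdc20, Cdk1 and Plk1) and 2 without control replicate 3 (Mki67 and Prc1), against 3.98% and 1.08% of all genes tested in those fits. The median was -0.47 without control replicate 1 and -0.55 without control replicate 3. No single one of the 4 genes was called in every fit that left out 1 library: Cdc20 was called in 4 of these 6 fits, Cdca8 in 3, Cdk1 in 3 and Prc1 in 2. In 14 of the 29 genes the mean over the 6 libraries was under 10 normalized counts, where single reads weigh heavily.

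The kinase CDK1 and its cyclins start and sustain mitosis, with Aurora A and Polo-like kinase 1. All 6 tested genes of this group (Ccna2, Ccnb1, Ccnb2, Cdk1, Aurka and Plk1) had negative log2 fold changes, with a median of -0.999. Control replicate 3 was the highest library in 4 of the 6. Without it all 6 stayed negative, from -1.045 for Ccnb1 to -0.12 for Plk1, with Ccna2 at -0.18 and Aurka at -0.29. Cdk1 (ENSMUST00000020099) was counted on chr10:69334897-69338497 and had 17.4, 16.4 and 39.5 normalized counts in control and 14.7, 8.7 and 9.9 in M-Δx3,4 libraries. The groups did not overlap, although M-Δx3,4 replicate 1 came close to control replicate 2, and the log2 fold change was -1.13 (standard error 0.53, unadjusted p = 0.04999 and adjusted p = 0.985 in edgeR's test). Without control replicate 3, the highest of its values, the log2 fold change was -0.59. Plk1 had 61.6, 37.8 and 208.8 normalized counts in control and 75.3, 25.3 and 35.9 in M-Δx3,4 libraries. Its libraries overlapped, its log2 fold change of -1.17 (standard error 0.58, unadjusted p = 0.0622 in edgeR's test) rested on control replicate 3, and without that library it was -0.12. Aurka had 40.7, 36.8 and 51.1 normalized counts in control and 27.4, 28.2 and 38.2 in M-Δx3,4 libraries, where only M-Δx3,4 replicate 3 reached the range of the controls. Its log2 fold change was -0.45 (standard error 0.40). Ccnb1, Ccnb2 and Ccna2 had log2 fold changes of -1.25, -0.78 and -0.87 with standard errors between 0.57 and 0.96, and all 3 had overlapping libraries. Ccna2 had no count in control replicate 2.

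CDC20 activates the anaphase-promoting complex, which marks cyclin B and securin for destruction, and the checkpoint kinases BUB1 and BUBR1 hold it back until chromosomes are attached. Cdc20 (ENSMUST00000183942), counted on chr4:118432856-118434773, had 18.6, 22.5 and 54.5 normalized counts in control and 14.7, 13.6 and 7.6 in M-Δx3,4 libraries. No M-Δx3,4 library reached the lowest control, and the log2 fold change was -1.41 (standard error 0.53, unadjusted p = 0.0182 and adjusted p = 0.985 in edgeR's test). Without control replicate 3 the log2 fold change was -0.78. Ube2c, the ubiquitin-conjugating enzyme of the same complex, had 149.9, 101.2 and 81.2 normalized counts in control and 74.3, 102.0 and 66.5 in M-Δx3,4 libraries. The groups overlapped, at a log2 fold change of -0.45 (standard error 0.38). Cdca3, a factor that promotes entry into mitosis, had 43.0, 30.7 and 59.2 in control and 35.2, 31.1 and 22.9 in M-Δx3,4 libraries, at a log2 fold change of -0.57 (standard error 0.42). Another tested transcript of Cdca3, of lower mean, went the other way, with a log2 fold change of 2.47. Bub1b, which encodes BUBR1, had a log2 fold change of -1.32 with a standard error of 0.91 and overlapping libraries, and Bub1 had no count in the M-Δx3,4 libraries and at most 2.0 in the controls.

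The chromosomal passenger complex corrects the attachment of chromosomes to the spindle and joins Aurora B (Aurkb), survivin (Birc5) and borealin (Cdca8) with INCENP. Cdca8 (ENSMUST00000084296), counted on chr4:124918216-124918985, had 151.1, 81.7 and 153.1 normalized counts in control and 68.5, 41.8 and 71.1 in M-Δx3,4 libraries. The groups did not overlap, and the log2 fold change was -1.09 (standard error 0.40, unadjusted p = 0.015 and adjusted p = 0.985 in edgeR's test). Its unadjusted p stayed under 0.05 without control replicate 1 (log2 fold change -0.96) and without control replicate 3 (-0.93), but not without M-Δx3,4 replicate 2. Birc5 had 104.6, 77.7 and 76.6 normalized counts in control and 51.8, 112.6 and 94.8 in M-Δx3,4 libraries. The M-Δx3,4 libraries lay on both sides of the controls, and the log2 fold change was 0.00 (standard error 0.39). Incenp, which was not among the 45 genes, had a log2 fold change of -0.84 (unadjusted p = 0.0618 in edgeR's test). Over all tested transcripts of Incenp the log2 fold changes ran from -1.32 to 2.46. The differences between these 3 subunits were not tested, and Aurkb stayed under 3.5 normalized counts in every library.

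Centromeres and kinetochores are built on CENP-A. Cenpa had 38.4, 47.0 and 45.3 normalized counts in control and 57.7, 17.5 and 37.5 in M-Δx3,4 libraries. The M-Δx3,4 values again lay on both sides of the controls, and the log2 fold change was -0.21 (standard error 0.45). Cenpf, with a log2 fold change of -0.09, also had overlapping libraries. Among genes of the spindle, Tpx2, which activates Aurora A on microtubules, had 72.1, 47.0 and 68.5 normalized counts in control and 36.2, 32.0 and 55.8 in M-Δx3,4 libraries. Only M-Δx3,4 replicate 3 overlapped the controls, and the log2 fold change was -0.59 (standard error 0.40, unadjusted p = 0.164 in edgeR's test). Nusap1, a microtubule-bundling protein, had a log2 fold change of -0.21 (standard error 0.79).

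Prc1 encodes the protein that bundles microtubules of the central spindle for cytokinesis. The counted region of its transcript ENSMUST00000047558, chr7:80315186-80316508, held 19.8, 8.2 and 10.4 normalized counts in control and 2.9, 5.8 and 4.6 in M-Δx3,4 libraries. The groups did not overlap, and the log2 fold change was -1.49 (standard error 0.68, unadjusted p = 0.0446 and adjusted p = 0.985 in edgeR's test). Without control replicate 1, the highest value, it was -1.04. The other genes of cytokinesis had few counts. Racgap1 and Ect2, which control the contractile ring, had log2 fold changes of -0.80 and 0.49 with standard errors of 0.85 and 1.53, and Kif20a had one of 0.59 (standard error 0.74). Of the genes that shape mitotic chromosomes, the proliferation antigen Mki67 had 18.6, 21.5 and 5.8 normalized counts in control and 7.8, 9.7 and 5.4 in M-Δx3,4 libraries (log2 fold change -1.01, standard error 0.62). Control replicate 3 was within the range of M-Δx3,4, and without it the log2 fold change was -1.38 (unadjusted p = 0.0311 in edgeR's test). The condensin subunits Smc2 and Smc4 had log2 fold changes of -0.91 and -0.74, while topoisomerase II (Top2a), which untangles the chromosomes, had one of 0.41 (standard error 0.63), all with overlapping libraries.

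**Figure D3:**
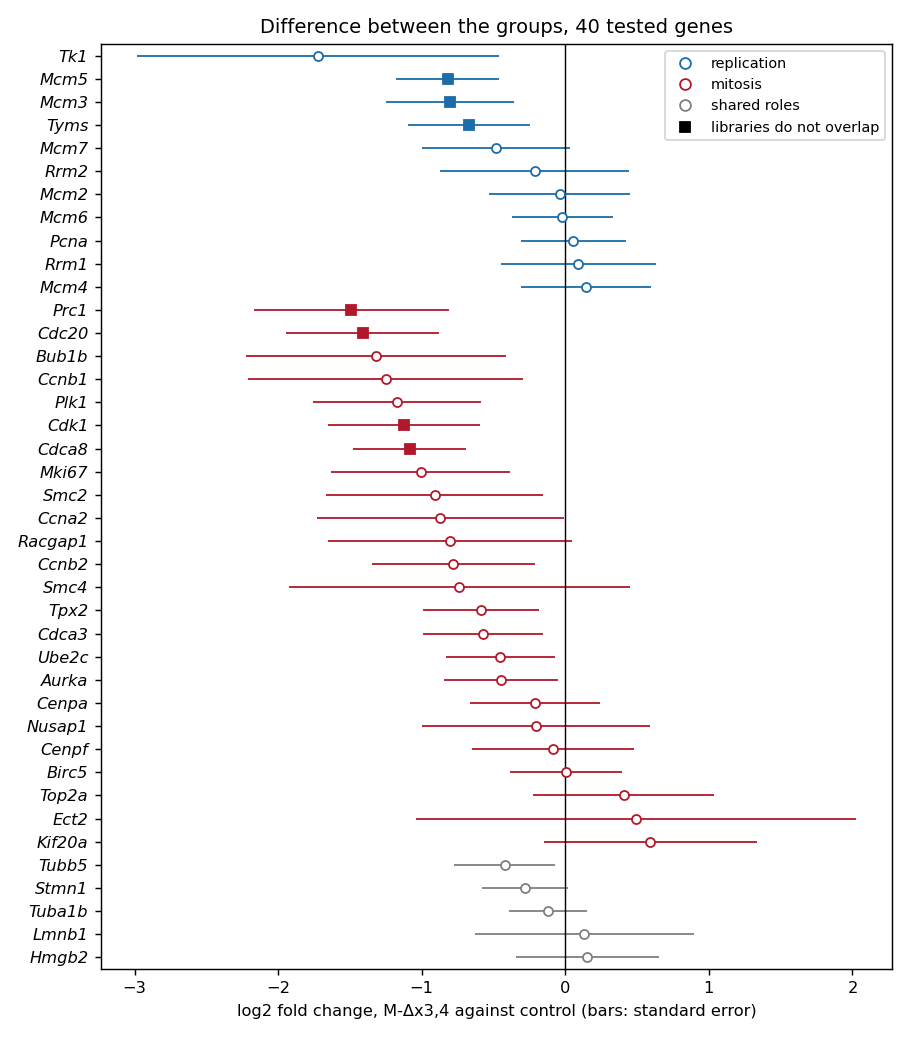
log2 fold change of M-Δx3,4 against control (bars: standard error) for the 40 genes tested, by class. 20 of the 24 mitosis genes lie left of 0, from -1.49 for Prc1 to 0.59 for Kif20a, and filled squares mark the 7 genes whose libraries do not overlap.

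Summed over the 29 genes, the normalized counts of the mitosis class were 901.9, 588.5 and 975.7 in control and 576.1, 480.7 and 544.1 in M-Δx3,4 libraries. The highest M-Δx3,4 library was just under the lowest control, and the means stood at a ratio of 0.649. That order depends on the scaling. Scaled to 1000000 counts of all genes in the library, the sums were 310.0, 201.0 and 335.0 in control and 205.4, 162.3 and 185.1 in M-Δx3,4 libraries, so that control replicate 2 lay under M-Δx3,4 replicate 1. The ratio of the mitosis sum to the replication sum in the same library does not depend on the scaling. It was 0.835, 0.920 and 1.13 in control and 0.632, 0.760 and 0.687 in M-Δx3,4 libraries, which did not overlap. With 3 cultures a group, the ratio is given as a description and was not tested. In each M-Δx3,4 library the counts of these 29 mitosis genes were thus a smaller multiple of those of the 11 replication genes than in any control. The replication sum is weighted toward Pcna and Mcm6, with control means of 288.8 and 208.4 in a mean control sum of 860.9. Their log2 fold changes were 0.06 and -0.02, so the ratio leans on these 2 genes. The sums of the 4 nucleotide supply genes had a ratio of the means of 0.816, against 0.905 for all 11. Among the further mitotic and replication genes given below, both sums were lower by a similar factor (ratios of the means 0.774 and 0.789). Control replicate 2, with the lowest mitosis sum of its group, also had the lowest replication sum.

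**Figure D4:**
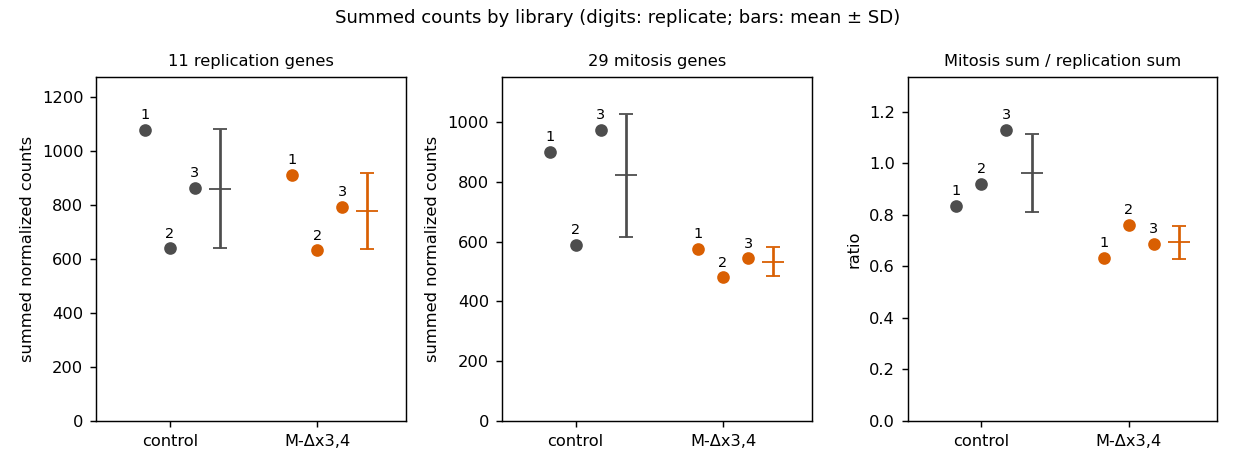
Summed normalized counts of the 11 replication genes and of the 29 mitosis genes, and the ratio of the 2 sums, in each library (digits: replicate; bars: mean ± SD, n = 3). The replication sums of the groups overlap, and the ratio lies between 0.632 and 0.760 in the M-Δx3,4 libraries and between 0.835 and 1.13 in the controls. The replication sum, and with it the ratio, is weighted toward Pcna and Mcm6.

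Other measured features moved with the groups beside these genes. Of the B cell markers given here, 2 lay lower in every M-Δx3,4 library at a level above the floor of 3 counts: Igkc, with 223.2, 228.9 and 251.8 normalized counts in control and 83.1, 59.2 and 95.5 in M-Δx3,4 libraries, and Ighm. The log2 fold change of Ighm was -0.70 (standard error 0.40), and another of its tested transcripts went the other way (0.66). The markers Cd79a, Ms4a1 and Pax5 stayed at or under 4.7 in every library, and Cd79b, with 18.6 to 26.6 in control and 16.1 to 37.9 in M-Δx3,4 libraries, overlapped between the groups. The sum of 7 dendritic cell markers was 155.7 to 285.4 in control and 65.0 to 73.4 in M-Δx3,4 libraries, carried by the MHC class II gene H2-Aa, and Flt3 and Zbtb46 were at or under 4.1 throughout. The sums of neutrophil markers (431.2 to 754.3 and 527.3 to 774.9), of fibroblast markers (12.8 to 53.5 and 8.4 to 44.0), of T and NK cell markers (10.4 to 45.3 and 12.7 to 25.2) and of erythroid markers (0 to 37.1 and 1.0 to 13.8) overlapped. The part of other cells in the mitosis result was not tested.

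None of the 5 genes with shared roles was called. 2 had positive and 3 negative log2 fold changes, and all 5 had overlapping libraries. Tuba1b, an α-tubulin, had 7114, 7790 and 7293 normalized counts in control and 5985, 7975 and 6476 in M-Δx3,4 libraries (log2 fold change -0.12, standard error 0.27). Tubb5, a β-tubulin, had 611.4, 840.9 and 1527.9 in control and 807.0, 759.3 and 655.7 in M-Δx3,4 libraries. Its log2 fold change of -0.42 rested on control replicate 3, and without that library it was 0.04. Tubulins are families of near-identical genes, and reads shared between them were not examined. Stmn1, which destabilizes microtubules, had 641.6, 471.0 and 537.2 normalized counts in control and 483.2, 463.2 and 410.4 in M-Δx3,4 libraries (log2 fold change -0.28, standard error 0.30). Hmgb2, a chromatin protein of dividing cells, had 79.0, 37.8 and 22.0 in control and 36.2, 37.9 and 79.5 in M-Δx3,4 libraries, so that each group spanned nearly the same range. The nuclear lamin gene Lmnb1 had 4.7, 5.1 and 7.0 in control and 3.9, 5.8 and 8.4 in M-Δx3,4 libraries.

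Regulators that act before both classes were not called in either direction with all 6 libraries or without control replicate 3. Without control replicate 1, 7.05% of all genes tested were called higher and 3.98% lower. In that fit Rbl2, which encodes the pocket protein p130, was called higher (log2 fold change 2.51), and Cdkn1a (-1.23) and the stress gene Gadd45b (-1.02) were called lower. Rbl2 had 17.4, 5.1 and 0 normalized counts in control and 26.4, 13.6 and 7.6 in M-Δx3,4 libraries. These overlap, and with all 6 libraries the log2 fold change of Rbl2 was 1.06 (standard error 0.84). Of 25 regulators of the G1/S transition, 20 were tested, with 13 positive and 7 negative log2 fold changes and a median of 0.09. Ccnd2, the cyclin D2 gene that responds to growth factors, had 2748, 1587 and 1331 normalized counts in control and 1739, 2554 and 3073 in M-Δx3,4 libraries, which overlap. E2f1, the founding E2F factor, had 1113, 806.1 and 704.2 in control and 708.2, 980.7 and 1253 in M-Δx3,4 libraries, at a log2 fold change of 0.17 (standard error 0.33). Of 19 CDK inhibitors and antiproliferative genes, 16 were tested, 8 in each direction, with a median of -0.02. Cdkn1a, which encodes the CDK inhibitor p21, had 404.5, 614.0 and 2408.5 normalized counts in control and 473.4, 522.4 and 940.0 in M-Δx3,4 libraries. Control replicate 3 stood far above the other 5 libraries, and the log2 fold change of -0.82 had a standard error of 0.53 and turned to 0.35 without that library. Mdm2, whose product degrades p53, had 904.3, 376.0 and 306.3 in control and 418.7, 548.6 and 848.3 in M-Δx3,4 libraries, with control replicate 1 the highest.

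Among further genes of the same processes, the medians of replication and mitosis lay closer together than among the 45 genes. Of 44 other replication factors, 35 were tested, 11 positive and 24 negative, with a median of -0.27. 1 of the 35 was called lower (2.86%, against 1.97% of all genes tested) and none higher. It was Orc5, a subunit of the origin recognition complex, with 10.46, 13.3 and 18.6 normalized counts in control and 5.9, 1.0 and 6.9 in M-Δx3,4 libraries (log2 fold change -1.58, standard error 0.70, unadjusted p = 0.0409 in edgeR's test). Orc5 was called in 2 of 6 fits that left out 1 library, and not without control replicate 3 (-1.33). Without control replicate 1, Orc5, Pold1 and Dnmt1 were called lower (9.68% of those tested, against 3.98% of all genes). Chek1 was called higher in that fit (3.23% against 7.05%). Without control replicate 3, Cdc7 and Dbf4 were called lower (6.06% against 1.08%). Both had their highest value in control replicate 1. There Cdc7 had 13.95 normalized counts, and at most 0.97 in any other library. Dbf4 had 99.96 there, and without that library its log2 fold change was -0.17. In this list the highest means were those of the DNA ligase gene Lig1 (log2 fold change -0.27) and the maintenance methyltransferase gene Dnmt1 (-0.77), both with overlapping libraries. Of 51 other mitotic genes, 6 had no row with counts, 29 were tested, 7 positive and 22 negative, and the median was -0.34. 3 of them were called lower (10.3%, against 1.97% of all genes tested) and 1 higher (3.45%, against 1.1%). Fzr1, which encodes CDH1, the partner of the anaphase-promoting complex in late mitosis and G1, had 43.0, 67.4 and 123.0 normalized counts in control and 27.4, 35.9 and 32.9 in M-Δx3,4 libraries. Its groups did not overlap (log2 fold change -1.27, standard error 0.44, unadjusted p = 0.0113 in edgeR's test). Cdc25b, a phosphatase that activates CDK1, had 18.6, 35.8 and 23.2 in control and 9.8, 11.7 and 10.7 in M-Δx3,4 libraries, again without overlap (log2 fold change -1.27, unadjusted p = 0.0199 in edgeR's test). The kinesin Kif15 had 63.9, 13.3 and 22.0 in control and 9.8, 11.7 and 14.5 in M-Δx3,4 libraries, which overlap (log2 fold change -1.44, unadjusted p = 0.0238 in edgeR's test). Lin37, a subunit of the MuvB core, was called higher. It had at most 3 counts in each control library, and against that floor was at least 2.89-fold higher in M-Δx3,4 libraries, where it had 11.7, 12.6 and 4.6 normalized counts. Without control replicate 1, Kif15 (log2 fold change -0.55) and Lin37 were no longer called, and without control replicate 3 Fzr1 (-0.78) was not. This left 2 genes called lower in either fit, 7.69% and 6.9% of those tested, against 3.98% and 1.08% of all genes. Fzr1 was called in 5 of the 6 fits that left out 1 library, and Cdc25b, Kif15 and Lin37 in 3 each. Without control replicate 3 the medians of the other mitotic genes and the other replication factors were -0.13 and -0.18. The highest means belonged to the checkpoint gene Bub3 (log2 fold change -0.37) and the securin gene Pttg1 (-0.32), both with overlapping libraries. Their tested transcripts differed in sign, from -0.55 to 0.78 for Bub3 and from -0.32 to 1.13 for Pttg1. The summed counts of the other mitotic genes were 1359.9, 1326.2 and 1934.0 in control and 1138.6, 1240.0 and 1195.2 in M-Δx3,4 libraries, and those of the other replication factors 2147.9, 1892.2 and 2492.0 in control and 1682.4, 1751.7 and 1721.7 in M-Δx3,4 libraries. In neither list did the sums of the groups overlap, and the ratios of the means, 0.774 and 0.789, were close to each other.

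AUF1 proteins bind AU-rich elements, so the annotated 3′ UTRs of the represented transcripts were searched for the pentamer ATTTA and the nonamer TTATTTATT. The pentamer was present in 8 of 11 replication genes (72.7%), in 20 of 29 mitosis genes (69.0%) and in 69.6% of 9712 genes tested. The nonamer was found in 3 of the 45 genes (Ccnb1, Cenpe and Hmgb2), a share of 6.67% against 7.55% of the genes tested, although the 3′ UTRs of the 45 genes were shorter, with a median length of 600 bases against 1208. None of the 3 was called. Of the 4 mitosis genes called lower, Cdca8 and Cdc20 had no pentamer, Prc1 had 1 and Cdk1 had 6 in a 3′ UTR of 3352 bases. The nonamer of Ccnb1, the 1 mitosis gene of the 3 that was tested, is shown in capitals.
Ccnb1, nonamer from base 424 of the 3′ UTR: ttttatgtaaTTATTTATTtgttcttaat

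The medians of both classes kept their sign under every alternative of processing that was tried. That of the mitosis genes lay between -0.83 and -0.57 when all 6 libraries were kept and between -0.90 and -0.47 when 1 library was left out, and was under that of the replication genes in each of these fits. That of the replication genes came as close to 0 as -0.01, without control replicate 3. The number of mitosis genes called lower was less stable and ran from 1 to 6, while none was called higher in any fit. Over these fits, the share of all genes tested that was called lower ran from 0.895% to 3.98%.

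**Figure D5:**
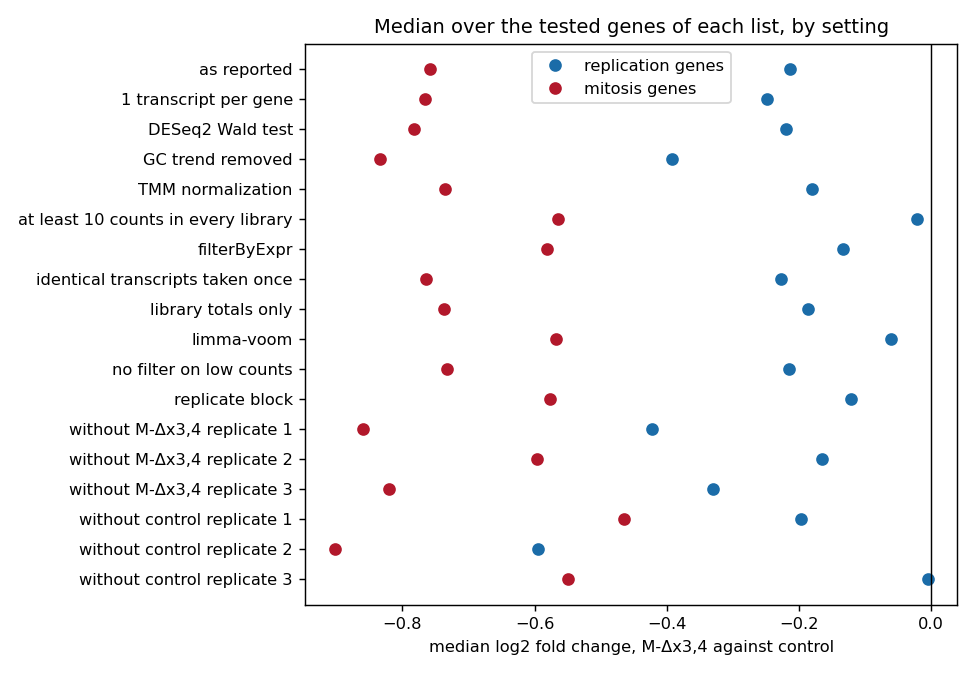
Median log2 fold change over the tested genes of the replication class and of the mitosis class under each processing alternative and with each library left out. The mitosis median lies between -0.90 and -0.47 and is left of the replication median in every row.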

How the data were processed

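Total RNA of 3 control and 3 M-Δx3,4 BMDM cultures was made into QuantSeq 3′ libraries and sequenced on an Ion Proton. Per the labels and methods, the authors mapped reads to mm10 with TopHat2 (2.1.1) and the unmapped rest with Bowtie2 (2.3.2 in the processing notes, where the methods name another release), and counted them with metaseqR2 on 3′ UTR regions of Ensembl transcripts extended by 500 bp. They deposited these counts, as whole numbers without normalization. Whether counting used strand is not given in the sources used here. A second deposited table, with the authors' own p-values, fold changes and 24 columns of normalized values per library, was not used.

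Here counts were summed over the regions that belong to each of the 142567 transcripts and scaled by median-of-ratios size factors, the method of DESeq2, in edgeR. A transcript was tested where its normalized count exceeded 4.89, the overall median, in 1 library or more, by edgeR's quasi-likelihood test (edgeR 4.0.16, R 4.3.3), with Benjamini-Hochberg adjustment over all of them. The transcript of highest mean stood for its gene. On counts simulated for this comparison with changes in 200 genes, the test called 22 of 43 genes changed by a log2 fold change of 1, 49 of 51 changed by 2, and 232 of 7170 unchanged genes. The median filter was set anew on these counts, with 1 transcript per gene, and left 7315 genes. Genes with few counts were therefore tested less often there than in the real data. Groups follow the sample labels. Promoters come from RefSeq (GRCm38.p6) and 3′ UTRs from GENCODE. Counting error alone limits low counts, and PCR duplicates were not removed by molecular identifiers.

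The members, the lists of further genes and the marker lists were chosen with earlier results of these data known. Values in every library are given for members whose groups do not overlap or with an unadjusted p under 0.05, for the 4 replication and 8 mitosis genes with the highest mean and for the 5 shared genes. Of each further list, the genes with an unadjusted p under 0.05 and the 2 with the highest mean are named. Other genes are named for their place in a complex. A cell type marker and a promoter window are not reported here. Alternatives were other scalings and filters, DESeq2 (1.42.0), limma-voom (3.58.1), 1 transcript per gene, a replicate block, each library left out in turn, and, added after the data were seen, removal of a GC trend.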

Additional observations from a re-analysis of the deposited data

How the results depend on the processing

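None of the 5 members with an unadjusted p under 0.05 with all libraries (Mcm5, Cdk1, Cdc20, Prc1 and Cdca8) changed the sign of its log2 fold change in these fits, and no member had an adjusted p under 0.05 in any fit. With all libraries kept, 2 mitosis genes were called lower in place of 4 with DESeq2, with at least 10 counts required in every library, with filterByExpr and with limma-voom, in each case Cdc20 and Cdca8. The share of all genes called lower fell too, from 1.97% to 1.2%, 0.895%, 1.22% and 1.07% in these fits, while the number of members with an unadjusted p under 0.05 went from 5 to 3 with DESeq2, filterByExpr and limma-voom. The number of replication genes called lower went from 0 to 1 (Mcm5) when a GC trend was removed and when no fold change minimum was asked. Of all genes tested, 2.1% and 2.53% were lower in these 2 settings. With 1 library left out, the number of mitosis genes called lower ran from 1, without M-Δx3,4 replicate 2 (Cdc20) or replicate 3 (Cdca8), to 6 without control replicate 2. Of all genes tested, 1.54%, 1.48% and 2.31% were called lower in these fits, in that order. The number of members with an unadjusted p under 0.05 ran from 1 to 7 with 1 library left out. Replication genes called higher ran from 0 to 1 (Rrm1, without control replicate 3, where 0.887% of all genes tested were called higher). The median of the replication genes ran from -0.595 to -0.005. The 1070 transcripts called became 389 with 1 transcript per gene, 704 with DESeq2, 252 with at least 10 counts in every library, 477 with filterByExpr and 1715 with no filter, and, with 1 library left out, were fewest without control replicate 3 (705) and most without control replicate 1 (3211). The cause of these changes was not tested, beyond the smaller number of transcripts that stricter filters leave. The number of transcripts with an adjusted p under 0.05 was 0 except with DESeq2 (4), with no filter (118) and without control replicate 1 (57). The median over all genes stayed between -0.04 and 0.05 in all of these fits.

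The groups share replicate numbers 1 to 3. Deviations of same-numbered libraries from their group means correlated at -0.21, 0.54 and -0.31, so the numbers were not taken as pairs. With a replicate block, 2 mitosis genes (Cdc20 and Cdca8) were called lower, against 1.31% of all genes tested, 685 transcripts were called, 2 members had an unadjusted p under 0.05, and the medians were -0.12 for replication and -0.58 for mitosis genes.

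Depth limits the mitosis class most. 14 of its 29 genes had a mean under 10 normalized counts and 5 could not be tested. In the simulated data about as many tested genes with a log2 fold change of 1 were missed as were called. Because the simulation's filter left only 7315 genes of higher count, this does not show the recovery for genes with few counts.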
